A study of Mus musculus with 6 samples.

Results

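The genes described here are those of the p53 feedback loop together with the gene of p21, measured in mouse leukemia cells in which the arginine methyltransferase PRMT5 was inhibited. They are 10 genes chosen by name for their part in the loop and found by symbol: Trp53, Mdm2, Mdm4, Ppm1d, Ccng1, Cdkn1a, Rfwd2, Rchy1, Trp53bp1 and Usp7. All 10 were present among the 11644 genes with a value. The cells, MLL-ENL/NrasG12D, are a mouse myeloid leukemia line driven by a fusion of the methyltransferase MLL with ENL and by an activated Nras, and every library, controls included, carries both lesions. For 72 h they were grown either with EPZ015666, a small molecule that blocks PRMT5 catalysis, at 5 µM in DMSO, or with the same amount of DMSO alone, and both were given again on day 2. Polyadenylated RNA was sequenced from 3 libraries per group. The series calls them independent replicates without saying what was repeated. The p-values set the difference between the groups against the spread of the libraries within a group, which may be technical. They describe 6 libraries of a single cell line.

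The protein p53, encoded by Trp53, is a transcription factor that is made all the time and destroyed almost as fast. Mdm2, an E3 ubiquitin ligase, marks it for the proteasome, and Mdm4, a relative of Mdm2 with little ligase activity of its own, binds p53 and blocks its activation domain. Stress frees p53 from this control. It then switches on its target genes, and these include its own inhibitors (Mdm2, the phosphatase gene Ppm1d, and the ligase genes Rfwd2 and Rchy1) as well as effectors such as Cdkn1a, whose product p21 blocks cyclin-dependent kinases and stops the cell cycle. Because p53 is regulated mostly as a protein, the amount of Trp53 mRNA need not follow its activity. Neither p53 protein nor its binding to DNA was measured in these libraries.

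The promoters of 5 of these genes are printed first, to set the 3 genes that rose most, Cdkn1a, Ccng1 and Mdm2, beside Trp53 and Ppm1d, which did not pass the test. Each window holds 250 bases before and 50 bases after an annotated gene start, 5′ to 3′ on the strand of the gene, from RefSeq on GRCm38.p6. Capitals mark every exact match to the p53 decamer consensus (a unit of 10 bases that reads the same on both strands, of which p53 binds 2) and every run of 2 adjoining decamers, 20 bases, with at most 1 mismatch in all. The windows lie at chr17:29090729-29091028 (plus strand) for Cdkn1a, at chr11:40755237-40755536 (minus) for Ccng1, at chr10:117710709-117711008 (minus) for Mdm2, at chr11:69580109-69580408 (plus) for Trp53 and at chr11:85311004-85311303 (plus) for Ppm1d.
Cdkn1a: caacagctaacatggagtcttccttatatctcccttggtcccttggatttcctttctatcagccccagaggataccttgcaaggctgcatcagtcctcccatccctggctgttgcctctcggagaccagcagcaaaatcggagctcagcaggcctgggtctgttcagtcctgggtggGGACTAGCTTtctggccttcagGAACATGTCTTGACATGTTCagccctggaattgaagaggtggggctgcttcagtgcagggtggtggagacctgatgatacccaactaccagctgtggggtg
Ccng1: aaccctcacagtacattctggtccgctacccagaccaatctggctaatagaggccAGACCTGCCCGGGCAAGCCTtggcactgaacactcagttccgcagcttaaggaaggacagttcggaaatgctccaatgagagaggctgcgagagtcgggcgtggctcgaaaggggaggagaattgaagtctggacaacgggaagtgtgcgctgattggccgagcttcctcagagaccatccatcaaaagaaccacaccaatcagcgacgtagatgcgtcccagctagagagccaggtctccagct
Mdm2: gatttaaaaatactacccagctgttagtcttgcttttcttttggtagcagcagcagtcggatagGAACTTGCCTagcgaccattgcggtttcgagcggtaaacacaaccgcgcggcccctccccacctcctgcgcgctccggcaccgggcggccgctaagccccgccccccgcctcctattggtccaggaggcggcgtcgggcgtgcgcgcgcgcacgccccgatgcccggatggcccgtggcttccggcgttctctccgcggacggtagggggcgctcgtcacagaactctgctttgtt
Trp53: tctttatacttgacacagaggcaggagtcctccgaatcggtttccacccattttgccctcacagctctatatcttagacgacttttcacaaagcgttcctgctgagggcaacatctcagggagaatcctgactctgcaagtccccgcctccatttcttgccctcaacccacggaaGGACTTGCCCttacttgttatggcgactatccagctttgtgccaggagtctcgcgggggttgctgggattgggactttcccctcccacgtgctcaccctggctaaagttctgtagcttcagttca
Ppm1d: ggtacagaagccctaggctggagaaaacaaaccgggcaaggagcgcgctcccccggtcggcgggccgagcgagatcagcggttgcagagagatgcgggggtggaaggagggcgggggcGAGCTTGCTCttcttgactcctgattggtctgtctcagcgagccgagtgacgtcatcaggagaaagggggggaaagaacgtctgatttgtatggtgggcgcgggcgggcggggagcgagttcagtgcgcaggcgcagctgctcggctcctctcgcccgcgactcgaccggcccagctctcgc

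A run of 2 adjoining decamers with at most 1 mismatch was present in the Cdkn1a and Ccng1 windows. In Cdkn1a it starts 51 bases before the more upstream of its 2 annotated starts, and in Ccng1 it starts 195 bases before the start. Over all mouse genes such a run was found in 29 of 32851 promoter windows, or 0.0883%. In Cdkn1a a further exact decamer lies 12 bases ahead of the run, whose first decamer is exact too; a pair of exact decamers at most 13 bases apart was found in 24 windows, or 0.0731%. The other 11 windows of these genes, among them the second Cdkn1a window at chr17:29093519-29093818, had 3 to 6 mismatches at their best position. A single exact decamer was held by 6 of the 13 windows, those of Cdkn1a, Ccng1, Mdm2, Trp53, Ppm1d and Rchy1, against 8.36% of all windows. These matches are letters in a window and not bound sites, and the choice of at most 1 mismatch in adjoining decamers was made after the sequences had been seen. A window without a match says nothing of sites elsewhere: the known p53 elements of Mdm2, for example, lie in its first intron, outside this window.

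**Figure D1:**
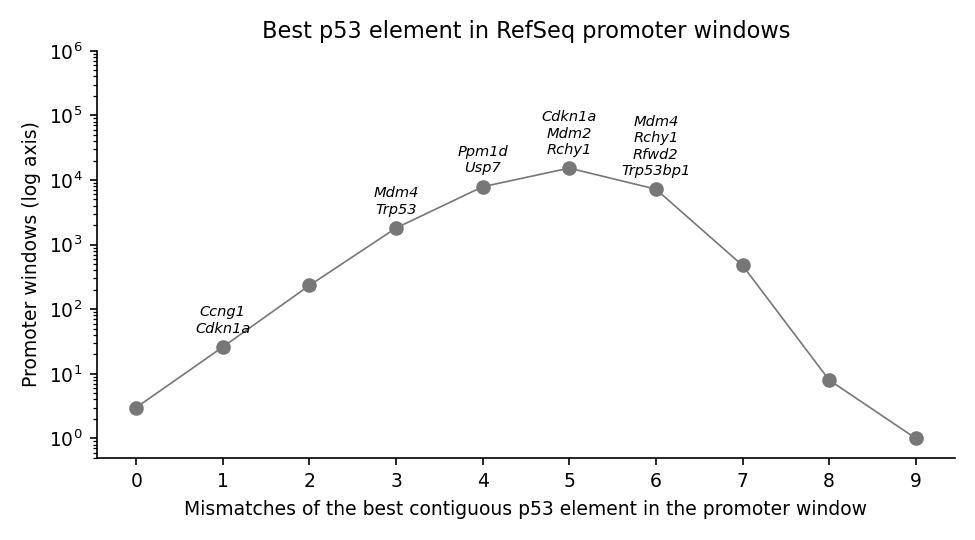
Number of RefSeq promoter windows (log axis, 32851 windows of 300 bases) by the mismatches of their best run of 2 adjoining p53 decamers, with the names of the 10 genes at the position of each of their windows. Cdkn1a and Ccng1 each have a window at 1 mismatch, where 26 of all windows lie, whereas the other 11 windows stand at 3 to 6.

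With the inhibitor, 3 of the 10 genes rose several-fold: Cdkn1a, Mdm2 and Ccng1. Rchy1 and Trp53bp1 rose by less, Usp7 fell, and Trp53, Mdm4, Ppm1d and Rfwd2 did not pass the test. The test was limma-trend on log2(normalized count + 1), where a normalized count is the number of reads of a gene divided by a size factor for its library, and a gene was called at a Benjamini-Hochberg adjusted p under 0.05 over all 11644 genes. By this test 5 of the 10 rose, against 23.6% of all genes, and 1 fell, against 22.9%. The 6 called genes are set against 46.5% of all genes called, so the count itself is near the background. A rise of at least 2-fold was called for 3 of the 10, against 7.16% of all genes. The libraries of the groups did not overlap for 5 of the genes, 4 higher and 1 lower with the inhibitor, against 56.0% of all genes (28.2% higher and 27.9% lower). The median log2 fold change of the 10 was 0.15, and that of all genes 0.00.

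**Figure D2:**
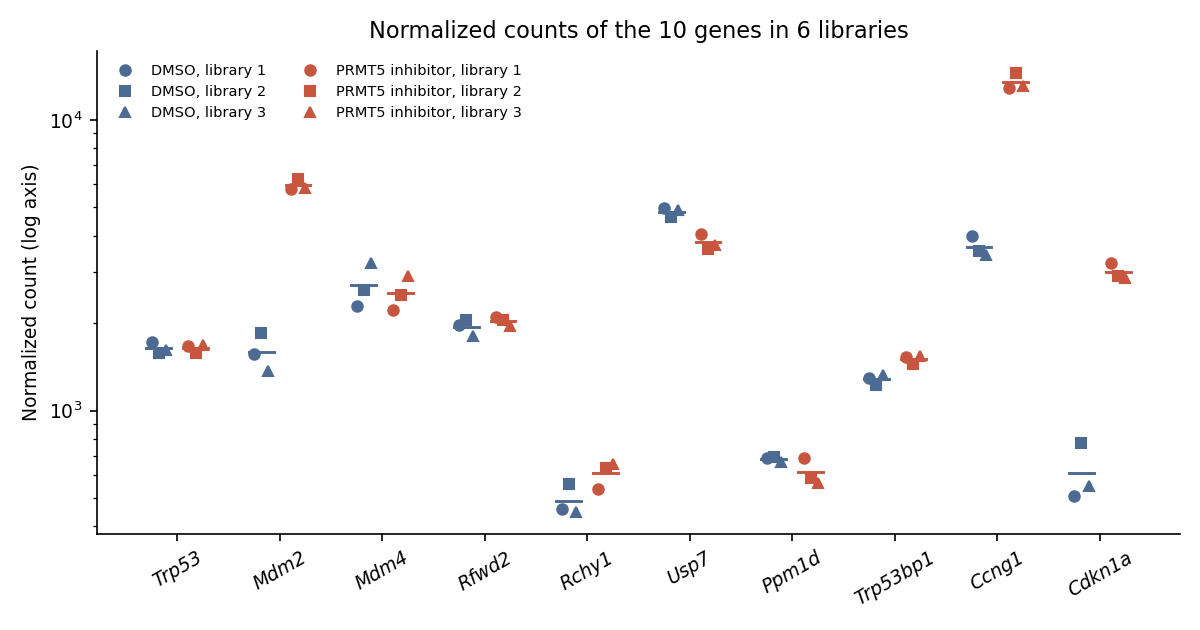
Normalized counts (log axis) of the 10 genes in each of the 6 libraries, with blue for DMSO, red for the inhibitor, a symbol for each library number and a bar at the group mean. Cdkn1a, Mdm2 and Ccng1 lie far apart between the groups, Usp7 lies lower with the inhibitor in every library, and the Trp53 and Mdm4 libraries overlap.

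Cdkn1a, on chromosome 17 (29090976 to 29100727, plus strand, mm10), had 508, 773 and 549 normalized counts in DMSO libraries 1, 2 and 3. With the inhibitor it had 3230, 2904 and 2861. The lowest inhibitor library stood well above the highest DMSO library, and the DMSO libraries were the more scattered, library 2 being the highest of them. The fold between the group means was 4.92, and the log2 fold change 2.32 ± 0.13 (SE, n = 3 per group; 95% interval 2.02 to 2.61; limma adjusted p = 2.30e-07), which placed the gene at rank 234 of 11644 by log2 fold change. DMSO library 2 also held more transcripts of the stress genes Ddit3 (1378, against 171 and 237 in DMSO libraries 1 and 3), Trib3 (1376, against 126 and 218) and Nupr1 (249, against 37.5 and 44.2). Without that library the log2 fold change of Cdkn1a was 2.50.

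Mdm2, on chromosome 10 (117688875 to 117710758, minus strand), had 1560, 1856 and 1370 normalized counts in DMSO and 5779, 6265 and 5843 with the inhibitor. As for Cdkn1a, the groups were far apart and DMSO library 2 was the highest control. The rise was 3.74-fold, a log2 fold change of 1.91 ± 0.11 (SE, n = 3 per group; 95% interval 1.68 to 2.14; limma adjusted p = 1.56e-07), and 2.03 without DMSO library 2. Mdm2 is at once a target of p53 and its main antagonist.

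Ccng1, on chromosome 11 (40748552 to 40755311, minus strand), encodes cyclin G1, an early known target of p53 that recruits a phosphatase to Mdm2. It had 3993, 3544 and 3439 normalized counts in DMSO and 12853, 14530 and 13111 with the inhibitor. Every inhibitor library lay more than 3-fold above every DMSO library, and the controls were closer together than those of Cdkn1a, with an SD of 8.05% of the mean against 23.4%. Its log2 fold change was 1.88 ± 0.09 (SE, n = 3 per group; 95% interval 1.68 to 2.09; limma adjusted p = 7.14e-08), 3.69-fold between the means.

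These libraries come from bulk RNA, in which fewer cells of a type and less RNA per cell cannot be told apart. The myeloid markers listed for the check of the cell type moved with the inhibitor as well: of 9 measured, 5 rose and 2 fell (23.6% and 22.9% of all genes), and their summed level was 17510 to 18478 normalized counts in DMSO and 25555 to 26020 with the inhibitor. The largest rises, named after their values were seen, were those of Itgam (3.79-fold) and Csf1r (3.17-fold). The falls were those of Mpo, to 0.404 of its DMSO mean with overlapping libraries, and Cebpa, to 0.689. The part of the myeloid markers in the changes of the p53 genes was not tested.

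Trp53 itself (chromosome 11, 69580359 to 69591873, plus strand) was nearly level over all 6 libraries. It had 1717, 1577 and 1622 normalized counts in DMSO and 1668, 1577 and 1683 with the inhibitor. The ranges overlapped almost fully. The difference on the log2 scale was 0.00 ± 0.08 (SE, n = 3 per group; limma adjusted p = 0.969), and its 95% interval, -0.16 to 0.17, leaves out a change of the size seen for any of the 3 genes above. Reads of the processed pseudogene Trp53-ps on chromosome 17 could have been counted with it.

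Mdm4 (chromosome 1, 132959484 to 133030561, minus strand) had 2298, 2590 and 3227 normalized counts in DMSO and 2227, 2503 and 2893 with the inhibitor. Its spread within each group was wider than the gap between them, and the groups overlapped. The log2 fold change was -0.08 ± 0.13 (SE, n = 3 per group; 95% interval -0.36 to 0.19; limma adjusted p = 0.612). PRMT5 is known to affect the splicing of Mdm4 in other cells, and a switch between its isoforms would not show in a total per gene. The gene has a processed pseudogene, Mdm4-ps, on chromosome X.

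Ppm1d (chromosome 11, 85311244 to 85347066, plus strand) encodes Wip1, a phosphatase that removes activating phosphates from p53 and from the kinases above it. It had 686, 695 and 664 normalized counts in DMSO and 690, 589 and 564 with the inhibitor. Inhibitor library 1 lay among the controls and the other two below them. The log2 fold change was -0.16 ± 0.10 (SE, n = 3 per group; 95% interval -0.37 to 0.05; limma adjusted p = 0.203). A rise like that of Mdm2 or Cdkn1a lies outside this interval, although Ppm1d is known as a p53 target in other cells.

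**Figure D3:**
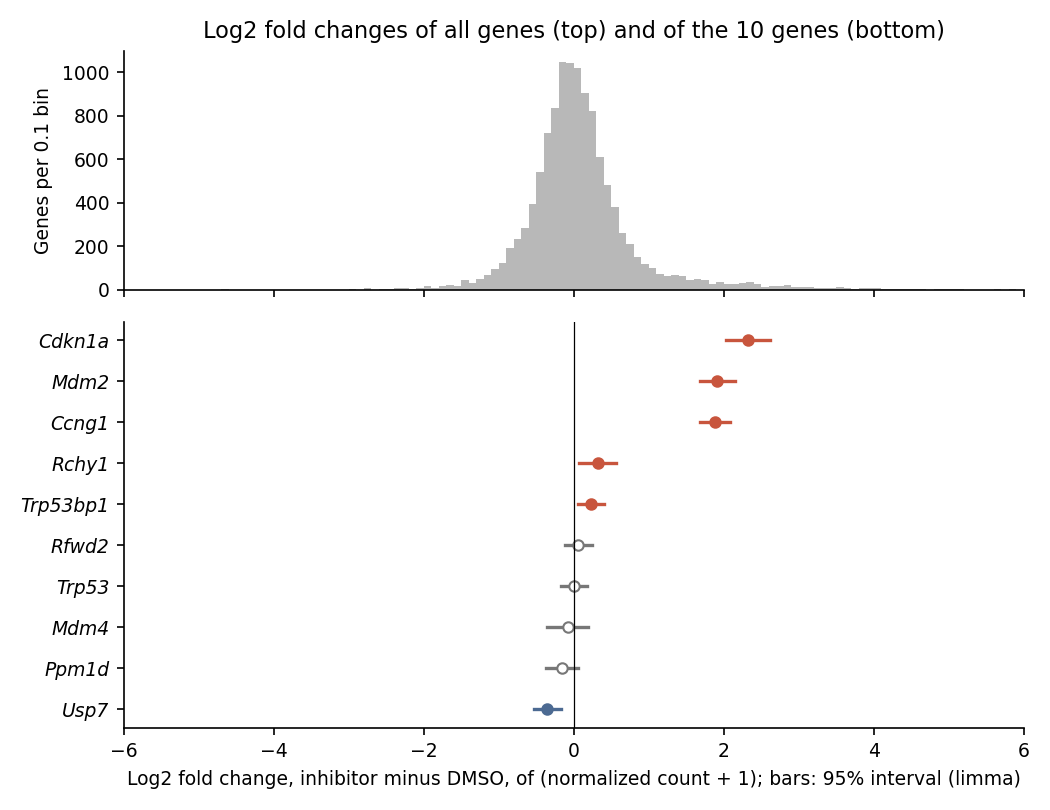
Log2 fold changes of normalized count + 1, inhibitor minus DMSO, as a histogram of all 11644 genes (top) and for the 10 genes with their 95% intervals from limma (bottom; red rose, blue fell, open grey points did not pass). Cdkn1a, Mdm2 and Ccng1 stand at 1.88 to 2.32, and the other 7 between -0.35 and 0.32.

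Of the 2 other p53 ligases among the 10 genes, Rfwd2 did not pass and Rchy1 rose slightly. Rfwd2, also named Cop1 (chromosome 1, 159232320 to 159347640, plus strand), had 1977, 2050 and 1810 normalized counts in DMSO and 2092, 2042 and 1954 with the inhibitor, and its groups overlapped (log2 fold change 0.06 ± 0.08 SE, n = 3 per group; 95% interval -0.11 to 0.24; limma adjusted p = 0.553). Rchy1, or Pirh2 (chromosome 5, 91948904 to 91963068, minus strand), had 460, 558 and 449 in DMSO and 538, 636 and 655 with the inhibitor. DMSO library 2 lay above the lowest inhibitor library, so these groups overlapped too. Rchy1 passed the test with a 1.25-fold rise (log2 fold change 0.32 ± 0.11 SE, n = 3 per group; limma adjusted p = 0.0362). The call was lost with edgeR (adjusted p = 0.0520). By limma it was also lost on omitting DMSO library 1 (0.111) or 3 (0.130), or inhibitor library 2 (0.128) or 3 (0.110). On the opposite strand, 680 exonic bases of Rchy1, 18.0% of its exons, are shared with Thap6, which had 156 ± 3.34 and 191 ± 16.6 normalized counts (mean ± SD of 3 libraries each; log2 fold change 0.28, limma adjusted p = 0.0779). The kit keeps the strand of the RNA, but the strand setting of the counting is not given in the sources used here.

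Usp7 (chromosome 16, 8689595 to 8792308, minus strand), a deubiquitinase that takes ubiquitin off both p53 and Mdm2, had 4964, 4634 and 4904 normalized counts in DMSO and 4060, 3595 and 3714 with the inhibitor. All inhibitor libraries lay below all controls. The DMSO mean was 1.28-fold that of the inhibitor, a log2 fold change of -0.35 ± 0.08 (SE, n = 3 per group; 95% interval -0.53 to -0.17; limma adjusted p = 0.00440). It was the single gene of the 10 called lower, and the call held in each of the 15 alternatives run, with adjusted p between 3.88e-04 and 0.0323.

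Trp53bp1 (chromosome 2, 121193281 to 121271407, minus strand) encodes 53BP1, an adaptor at DNA breaks that was found through its binding to p53. It had 1295, 1224 and 1328 normalized counts in DMSO and 1533, 1446 and 1537 with the inhibitor, without overlap. The rise was 1.17-fold (log2 fold change 0.23 ± 0.08 SE, n = 3 per group; 95% interval 0.06 to 0.40; limma adjusted p = 0.0284). With limma and one library left out, the call survived only the removal of inhibitor library 2 (adjusted p = 0.0497). Omitting DMSO library 1, 2 or 3 gave 0.0663, 0.0856 and 0.0521, and omitting inhibitor library 1 or 3 gave 0.0580 and 0.0583. Trp53bp1 shares 2130 exonic bases, 15.0% of its exons, with Tubgcp4 on the opposite strand, which had 916 ± 64.5 and 891 ± 39.0 normalized counts (mean ± SD of 3 libraries each; limma adjusted p = 0.734).

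Levels of different genes were compared per length, as normalized counts per kilobase of the longest coding transcript in GENCODE release M21. In DMSO, Ccng1 (1042 ± 83.8 per kilobase, SD, n = 3) and Usp7 (1019 ± 37.0) were the most abundant and overlapped each other. They were followed by Trp53 (878 ± 38.4), which lay apart from both neighbours, and by Mdm2 (507 ± 77.9). From Mdm2 downward through Mdm4 (381 ± 66.9), Rfwd2 (380 ± 24.0), Cdkn1a (293 ± 68.7), Rchy1 (248 ± 30.5) and Ppm1d (235 ± 5.59), each gene overlapped the next over the libraries, and Trp53bp1 (133 ± 5.55) lay below all of them. With the inhibitor the first 3 places were held by Ccng1 (3843 ± 257), Mdm2 (1896 ± 83.9) and Cdkn1a (1442 ± 96.9), each apart from the next. Cdkn1a thus went from place 7, with fewer normalized counts per kilobase than Trp53, to place 3, above Trp53 (880 ± 30.7). Usp7 (799 ± 51.0) now overlapped Trp53. Rfwd2 and Mdm4 overlapped, as did Mdm4 and Rchy1. With the union of all annotated exons as the length, the first 3 places in the inhibitor group and the first 4 in DMSO were the same, while Ppm1d moved up to place 5 in DMSO and Rfwd2 down to place 9. By that length Usp7 (488 ± 31.1) stayed above Trp53 (406 ± 14.1) with the inhibitor, without overlap. In DMSO, Usp7 (623 ± 22.6) then lay apart from Ccng1 (1042 ± 83.8), and Mdm2 (314 ± 48.2) lay apart from Ppm1d (215 ± 5.11), the next gene.

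**Figure D4:**
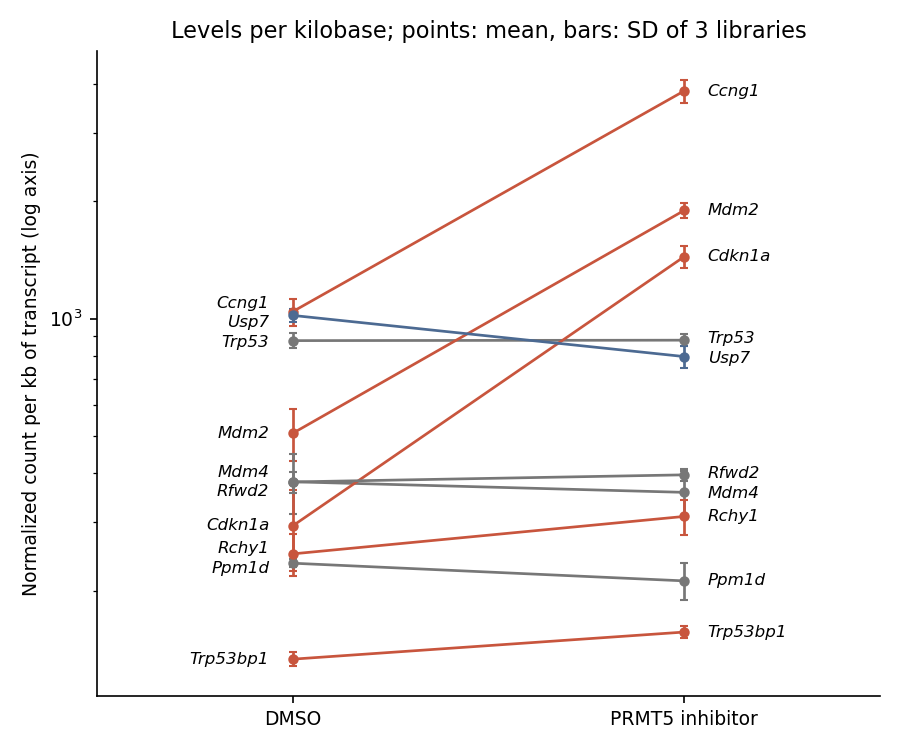
Normalized counts per kilobase of the longest coding transcript (log axis) in DMSO and with the inhibitor, with points at the mean and bars for the SD of 3 libraries (red called higher, blue called lower, grey not called). The lines of Mdm2 and Cdkn1a cross those of Trp53 and Usp7, whereas Trp53 stays at 878 and 880.

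Ratios of 2 transcripts within a library do not depend on how libraries were scaled, and 6 of them were tested. Per kilobase, Mdm2 stood at 1.53, 1.62 and 0.959 times Mdm4 in the DMSO libraries and at 5.86, 5.65 and 4.56 times with the inhibitor. By this length Mdm2 exceeded Mdm4 in 2 of the 3 controls and in every inhibitor library. By the exon union it exceeded Mdm4 in every control as well, with 307, 365 and 269 per kilobase against 155, 175 and 218. On the log2 scale the ratio differed by 2.00 ± 0.27 (SE, n = 3 per group). Mdm2 to Trp53 went from 0.539, 0.699 and 0.501 to 2.06, 2.36 and 2.06, a log2 difference of 1.91 ± 0.16, so the transcripts of the ligase passed from below to above those of its substrate. Cdkn1a to Trp53 went from 0.266, 0.440 and 0.304 to 1.74, 1.65 and 1.53, a log2 difference of 2.31 ± 0.22. Each of these ratios was without overlap, with an exact two-sided permutation p of 0.1, the smallest that 3 against 3 libraries can give (0.12 adjusted over the 6 ratios).

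The p53 targets among the 10 genes were also set against each other. Ppm1d to Mdm2 went from 0.477, 0.406 and 0.526 per kilobase to 0.129, 0.102 and 0.105, a log2 difference of -2.07 ± 0.15 (SE, n = 3 per group; exact permutation p = 0.1, adjusted 0.12). Mdm2 to Cdkn1a went from 2.03, 1.59 and 1.65 to 1.18, 1.43 and 1.35, with every inhibitor library below every control (log2 difference -0.41 ± 0.14; no overlap; exact permutation p = 0.1, adjusted 0.12). Ccng1 to Cdkn1a had 4.66, 2.71 and 3.71 in DMSO and 2.36, 2.96 and 2.71 with the inhibitor. These overlapped, since the ratio in DMSO library 2 lay below that of inhibitor library 2 and level with that of library 3 (log2 difference -0.43 ± 0.25; exact permutation p = 0.3, adjusted 0.3). This difference was -0.25 without DMSO library 1 and -0.64 without DMSO library 2, where the groups did not overlap (exact permutation p = 0.1, the smallest possible).

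**Figure D5:**
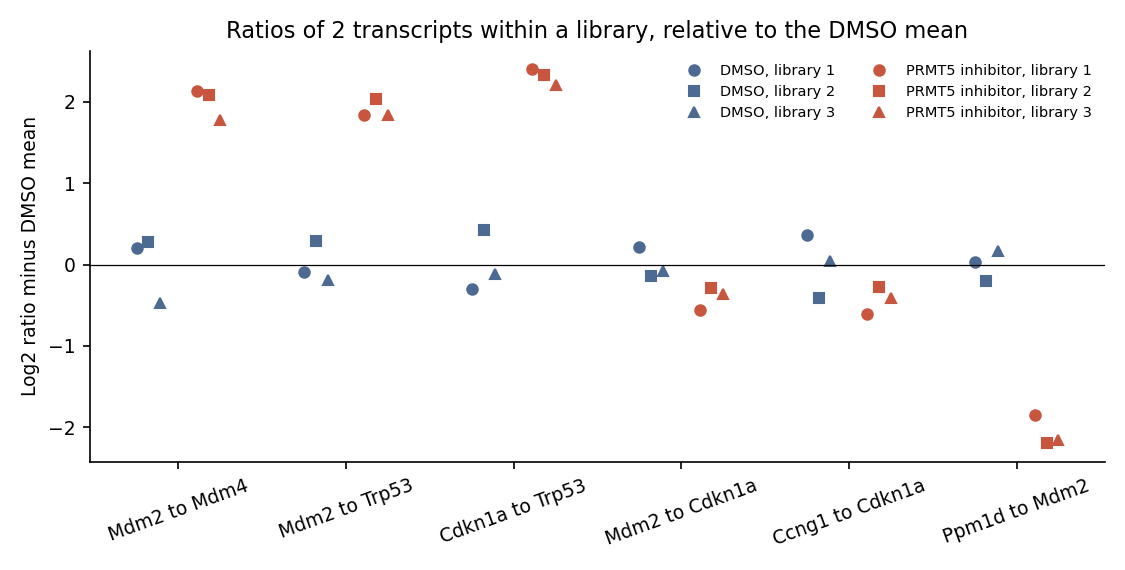
Log2 ratios of 2 transcripts in each library after subtraction of the DMSO mean of that ratio (blue DMSO, red inhibitor, a symbol for each library number). The group means of Mdm2 to Mdm4, Mdm2 to Trp53 and Cdkn1a to Trp53 differ by 1.91 to 2.31 and that of Ppm1d to Mdm2 by -2.07, and Ccng1 to Cdkn1a overlaps between the groups.

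Other genes of the pathway were taken from lists by function. Of 32 measured p53 target genes outside the loop, 23 rose, 3 fell and 6 did not pass, against 23.6% higher and 22.9% lower among all genes, and the median log2 fold change was 0.76 against 0.00. The smallest adjusted p belonged to Phlda3, a repressor of AKT signalling (43.5 ± 2.50 to 646 ± 55.4 normalized counts, mean ± SD of 3 libraries each; limma adjusted p = 5.03e-09), Plk2, a polo-like kinase (28.4 ± 7.16 to 414 ± 35.3), Trp53inp1, a stress-induced partner of p53 (630 ± 32.3 to 3060 ± 228), and Bax, a pore-forming killer protein of mitochondria (1442 ± 22.0 to 3816 ± 122). The falls, named after their values were seen, were those of the repair gene Ddb2 (187 ± 19.2 to 96.7 ± 16.5), the spindle gene Ckap2 (828 ± 72.3 to 547 ± 67.5) and the peptide transporter gene Tap1 (3145 ± 155 to 1971 ± 109). With each library left out in turn the rises numbered 20 to 23. The list was set by gene name, and whether p53 acts on each of its genes in these mouse cells was not tested.

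Of 38 other regulators of p53 protein, 5 rose, 9 fell and 24 did not pass, with a median of -0.04. This is a smaller share called than the 46.5% of all genes. Rps27l, a small protein that binds Mdm2, rose from 2534 ± 248 to 5180 ± 1012 normalized counts (mean ± SD of 3 libraries each). Cdkn2a, whose products include Arf, an inhibitor of Mdm2, rose from 239 ± 14.1 to 396 ± 24.9 as a total per gene. The Arf transcript was not counted apart, so a change of Arf itself was not measured. The damage kinase gene Atr fell from 2090 ± 141 to 1068 ± 82.3 and Usp28, a deubiquitinase that works with 53BP1 in stabilising p53, from 495 ± 42.8 to 272 ± 25.5. The limma adjusted p of these 4 lay between 6.63e-06 and 1.91e-04. Hdac1 and Rpl11, named after their values were seen, were among the other rises, with limma adjusted p of 0.0281 and 0.0234. The 5 rises became 3 without DMSO library 2 or inhibitor library 2 and 2 without DMSO library 3.

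Among 10 measured partners of 53BP1 at DNA breaks, 6 fell, 2 rose and 2 did not pass, with a median of -0.49, against 22.9% lower and 23.6% higher among all genes. Trp53bp1 itself rose slightly, as given above. The falls included Usp28, Rif1, the effector that 53BP1 brings to breaks (4757 ± 260 to 3352 ± 321), the histone variant gene H2afx (5175 ± 390 to 3552 ± 209) and the ubiquitin ligase gene Rnf168 (1493 ± 106 to 1061 ± 68.3; mean ± SD of 3 libraries each). The rises, named after their values were seen, were Dclre1c, the nuclease Artemis (603 ± 45.8 to 1100 ± 293), and Nudt16l1, which encodes the 53BP1 inhibitor TIRR (585 ± 45.5 to 692 ± 3.90). The 2 rises became 1 without DMSO library 2 or 3 or any one inhibitor library.

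Of 12 cyclins, kinases and other proteins bound by p21, 5 fell, 2 rose and 5 did not pass, with a median of -0.17, and 46.5% of all genes were called, so the count is near the background. Ccnd1, encoding cyclin D1, rose from 8001 ± 689 to 20596 ± 1776 normalized counts and Ccne2, cyclin E2, from 1139 ± 192 to 1822 ± 205, whereas Ccna2, cyclin A2, fell from 4619 ± 390 to 3182 ± 344 and Cdk4 from 7626 ± 458 to 6220 ± 225 (mean ± SD of 3 libraries each). Ccnb1, Cdk1 and Cdk2, named after their values were seen, fell with limma adjusted p of 0.0409, 0.0183 and 0.0433. The falls numbered 1 without DMSO library 1, 3 without DMSO library 3 and 2 without inhibitor library 2 or 3. The other p53 family genes, Trp63 and Trp73, were not among the measured genes.

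The 5 genes outside the loop whose log2 values over the 6 libraries were most like those of Cdkn1a were Fam78b, Kdm6a, Capn2, Dok2 and Rab7b, with Pearson r of 0.998 to 0.999. Their folds were unlike: Rab7b rose 7.47-fold and Fam78b 7.12-fold, but Kdm6a 1.32-fold. In each of the 5, as in Cdkn1a, DMSO library 2 was the highest control. Rab7b, for example, had 164, 274 and 208 normalized counts in DMSO libraries 1, 2 and 3. These values describe 6 libraries in 2 groups and share their libraries and depth, and 704 of 9090 genes compared (7.74%) had an r over 0.95.

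The libraries held 11335948 to 19197912 reads assigned to genes, the 3 deepest being 2 of DMSO and 1 of the inhibitor, and the 10 genes had between 421 and 12583 reads each in a library. The first principal component, with 74.5% of the variance, separated the groups, and the second, with 8.97%, gave a score of 29.2 to the second control library, whereas controls 1 and 3 had -13.5 and -12.3. Of the 10 genes, 5 were highest in that library among the controls and 3 lowest. Of 11 listed stress response genes, 10 were measured, and their summed level was 19160 in DMSO library 2, against 10932 and 11144 in the other controls and 12448 to 13362 with the inhibitor. Sesn2 and Ddit4, which are also in the list of p53 target genes, rose and Atf5 fell, 7 did not pass, and the median was -0.18. Without DMSO library 2 the rises numbered 5, and the falls numbered 3 without DMSO library 1 and 0 without inhibitor library 2 or 3. All 9 myeloid markers were measured. Of the defining markers of T and B cells, Lck and Cd79b were measured, at summed levels of 8.15 to 28.5 normalized counts, and no erythroid marker was. Of the 6 stromal and endothelial markers Pecam1, which myeloid cells also express, stood at 3240 ± 336 and 3801 ± 218 (mean ± SD of 3 libraries each; limma adjusted p = 0.0571), and Pdgfrb and Cdh5 had 6.25 ± 3.86 and 8.72 ± 2.71 in DMSO. Of the megakaryocyte markers, Itga2b rose from 6.79 ± 2.90 to 29.8 ± 10.3 and Gp9 had 6.67 ± 2.99 and 16.2 ± 9.10; their part in the results was not tested.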

How the data were processed

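Polyadenylated RNA of cells given DMSO or the inhibitor was made into 3 stranded libraries per group, per the labels' protocols. CASAVA 1.8.2, TopHat2 2.0.10, HTSeq 0.6.0, DESeq 1.16.0 and mm10 are listed in the submitters' processing notes; for the annotation and the strand setting nothing is given in the sources used here. The deposited values are a normalized signal made by the authors, namely read counts scaled per library with size factors: 100% of values were whole multiples of 1 step within 1e-06, so whole reads were recovered, and recomputed size factors were equal to the steps (0.715 to 1.24). Every gene in the table reaches 10 reads in some library, and no further filter was set. Groups and replicate numbers came from the sample titles.

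Groups were compared with the two-sided limma-trend test in limma 3.58.1 under R 4.3.3. It was fitted to log2(normalized count + 1) of all 11644 genes, and p-values were adjusted by Benjamini-Hochberg and called under 0.05. The design had named edgeR for counts and this test for normalized values. Fold changes on this scale understate the change of low genes. Ratios of 2 genes were compared by an exact permutation test. The procedure was tested on simulated data, where false calls exceeded the nominal share and small changes were recovered only in part. Far fewer genes were changed there than were called in these data, so the simulated shares need not hold here. Alternatives were edgeR 4.0.16 and DESeq2 1.42.0 on the recovered reads, limma-voom, other scalings, pseudocounts of 0.5 and 5, a mean of at least 100 normalized counts, a replicate block and leaving out each library. The list counts and the exon-union length were alternatives added after seeing the data.

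The 10 genes, the lists and the tests were chosen with earlier results of these data known. Named were the 10 genes whatever their values, from each list up to 4 called members with the smallest adjusted p, the 5 genes with a mean of at least 100 most correlated with Cdkn1a, and Ddit3, Trib3 and Nupr1. Other genes are named as markers, as overlapping genes or, after their values were seen, as further called members of a list or carriers of the promoter element. Gene positions and lengths are from GENCODE M21 on mm10, and promoter sequences from RefSeq on GRCm38.p6, in which all 10 genes were matched, Rfwd2 as Cop1. Protein sequences and exon-level counts were not analysed here.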

Additional observations from a re-analysis of the deposited data

How the results depend on the processing

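Cdkn1a, Mdm2, Ccng1 and Usp7 kept their direction and their call in each of the 15 alternatives, with log2 fold changes of 2.20 to 2.50, 1.81 to 2.03, 1.83 to 1.95 and -0.40 to -0.32. The number of the 10 genes called higher, 5 in the main test, was 4 with edgeR and 3 to 4 when 1 library was left out: 3 without DMSO library 1, DMSO library 3 or inhibitor library 3. The genes lost were Rchy1 and Trp53bp1, and 1 gene was called lower throughout. Fewer genes were called in all with a library left out, 4145 to 5346 in place of 5418; the cause of the lost calls was not tested. Differences near 0 changed sign: Trp53 had -0.018 with TMM factors, -0.0175 with edgeR and -0.0177 with limma-voom, and -0.0232 to 0.0383 with a library left out, and Mdm4 -0.19 to 0.0506; neither was called in any alternative. With a library left out, Ddit3 ranged from -0.61 to 0.89 and Trib3 from -1.16 to 0.56. Without DMSO library 2 both turned positive and were called higher (limma adjusted p = 1.49e-04 and 0.0285). By edgeR, Ddit3 had -0.705 and Trib3 -1.25, and neither was called. The rises among p53 target genes were 20 to 25 over all alternatives. Among the partners of 53BP1, 1 in place of 2 rose with TMM factors, edgeR, DESeq2 or limma-voom. Of the stress response genes, 1 fell in the main test, 2 with edgeR or DESeq2, 3 with the replicate block and 0 to 3 with a library left out.

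Libraries with the same number deviated from their group means with correlations of 0.247, 0.0735 and 0.263. Libraries of the 2 groups with unlike numbers had -0.235 to -0.0157. The labels name no pairing, and the main test did not treat the libraries as pairs. A shared batch or day was not tested. By these deviations each library correlated best with its own number in the other group, as a hint from the data. With the replicate block 5932 genes were called in place of 5418, and of the 10 genes 5 rose and 1 fell, as without it. The median log2 fold change of all genes was 0.00 in the main test and between -0.02 and 0.00 under the other scalings. Each of the 10 genes had at least 421 reads in every library. The difference of the Ccng1 to Cdkn1a ratio ranged from -0.64 to -0.25 with a library left out.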

Other observations

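Over all mouse promoters, 29 genes had a window with 2 adjoining p53 decamers and at most 1 mismatch, and 8 of these genes had a value in these libraries. Beside Cdkn1a and Ccng1 they were Rps27l, Gtse1, Bank1, Gm15987, Mthfd1 and Calhm2, named after their values were seen. With the inhibitor, 4 of these 6 rose and 2 fell by limma at an adjusted p under 0.05, with a median log2 fold change of 0.89. Among all genes 23.6% rose and 22.9% fell, with a median of 0.00. The rises of Gtse1 and Rps27l were already counted above, among the p53 target genes and the other regulators of p53 protein. Gtse1, a microtubule protein that binds p53, went from 907 ± 100 to 2043 ± 166 normalized counts (mean ± SD of 3 libraries each), and Bank1, a scaffold of B cell signalling, rose 2.03-fold from a low level, 26.2 ± 6.86. Gm15987 was low as well, at 14.9 ± 0.368 in DMSO and 26.0 ± 2.29 with the inhibitor. Calhm2 went the other way, from 515 ± 53.9 to 289 ± 21.9, as did Mthfd1, an enzyme of folate metabolism, from 2858 ± 361 to 2158 ± 372, with overlapping libraries. The genes were few and were picked by sequence after the promoters had been examined, so no test of the group was made.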
